A study of Mus musculus with 3186 samples.

Results

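Collagen chains are the polypeptides that wind in threes into the collagen molecules of the extracellular matrix, and their genes were described here across the cells of adult mouse brain vessels. The members were all genes of the count tables whose symbol reads Col, a number, a and a number. The rule found 44 of 19937 genes. It used no measured value.

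Each collagen molecule is built from chains of its own type, so a cell that is to make a molecule of different chains alone needs all of them. Type IV collagen forms the network of the basement membrane that surrounds brain vessels, and its chains pair as Col4a1 with Col4a2, or as Col4a3 to Col4a6 in more restricted networks. Fibrillar collagens such as types I, III and V form the fibrils of loose connective tissue, which in brain is found in the meninges and around larger vessels, and type VI forms beaded filaments beside them. Other types decorate fibrils, span the cell membrane or, as with the multiplexins Col15a1 and Col18a1, attach matrix to the basement membrane.

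The data were single-cell RNA sequencing of 3186 cells sorted by reporter fluorescence from brains of C57BL/6 mice aged 12 to 15 weeks. Cldn5(BAC)eGFP mice, whose reporter follows a tight junction gene of endothelium, gave 1445 cells. Pdgfrb(BAC)eGFP/NG2dsRed mice, in which cells positive for both mural reporters were taken, gave 1484 cells. Pdgfra-H2BGFP mice, whose reporter marks a perivascular population and the oligodendrocyte lineage, gave 257 cells. No group carried a treatment, and every cell came from a reporter mouse, so the cells seen are those in which these promoters were active.

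No cell types were labelled, so cells were clustered on genes other than the collagen chains and the collagen-making genes, and clusters were named from marker genes. This left 373 arterial-like, 777 capillary-like and 259 venous-like endothelial cells of the Cldn5 line, 1151 pericyte-like and 168 smooth muscle-like cells of the mural line, and 77 fibroblast-like and 150 oligodendrocyte-like cells of the Pdgfra line. The names are rebuilt ones, and figure axes leave out the word "like". Levels are given as CPM, the reads of a gene summed over the cells of a class per 1000000 summed reads of that class. All 8 fibroblast markers (among them Dcn and Lum) reached 20 CPM in the fibroblast-like cells, all 8 pericyte markers in the pericyte-like cells, all 8 endothelial markers in each endothelial zone and all 8 oligodendrocyte markers in the oligodendrocyte-like cells. In arterial-like, capillary-like and venous-like cells, arterial markers summed to 3606, 190.4 and 45.9 CPM. In the same order venous markers summed to 705.2, 896.4 and 4207 CPM. Capillary markers were high in every zone, at 4696, 10370 and 8050 CPM. They thus exceeded the zone's own markers in arterial-like and venous-like cells. Since no animal is identified in the labels, a line counted as 1 sample, and no test between classes was possible. Brackets give exact 95% Poisson intervals, which cover counting error only, since reads without molecular tags are not independent molecules. The spread is given over plates with at least 10 cells of a class, which are the 384-well plates EC3 to EC6, Mural3 to Mural6, Pdgfra1 and Pdgfra2. Which animals a plate came from is not labelled, so plates are not biological replicates.

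Cells held between 99905 and 1606954 reads, and the median cell of a class between 330388 reads (capillary-like) and 591393 reads (fibroblast-like). The fibroblast-like class rested on 2 unequal plates: 51 cells of Pdgfra1 (median 879320 reads) carried 89.1% of its reads, and 26 cells of Pdgfra2 (median 171056 reads) carried 10.9%. Both plates are therefore given for each of its chains. Wells were called mixed when summed endothelial, pericyte, fibroblast or oligodendrocyte markers of another class came to 10% or more of that class's median cell. Smooth muscle markers were not used, and pericyte markers did not count against smooth muscle-like cells. The flag therefore did not look for wells that joined a pericyte and a smooth muscle cell. Mixed wells made up 50.1% of pericyte-like cells, 19.6% of smooth muscle-like cells and 16.9% of fibroblast-like cells. No endothelial-like cell was of this kind. The endothelial marker Esam alone gave 1323 of the 1491 CPM of summed endothelial markers in pericyte-like cells. In smooth muscle-like cells it gave 726.3 of 786.5 CPM. Which markers flagged a well was not tested, so the flag does not show that a well held a second cell.

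The classes differed in how many chains were read and in which families. Of the 44 chains, 28 reached 20 CPM in fibroblast-like cells, 13 in pericyte-like cells, 12 in smooth muscle-like cells, 5 in arterial-like, 3 in capillary-like and 2 in venous-like endothelial cells, and 1 in oligodendrocyte-like cells. Summed over all chains, the level was 10470 CPM in fibroblast-like cells, with 10560 CPM on Pdgfra1 and 9726 CPM on Pdgfra2. The sum was 1901 CPM in smooth muscle-like cells (plates 1594 to 2145) and 1816 CPM in pericyte-like cells (plates 1580 to 2023), and these plate ranges overlapped. In the endothelial zones it was 1121 CPM (plates 1064 to 1151) in arterial-like, 802 CPM (plates 747 to 836) in capillary-like and 718 CPM (plates 605 to 812) in venous-like cells. The arterial-like plates all lay above those of the other zones, and the latter overlapped. Oligodendrocyte-like cells had 98.8 CPM (plates 90.7 to 112.5).

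The number of chains read per cell was compared at equal depth. When cells were thinned to 100000 reads, which left out 1 pericyte-like cell that was shallower, the median fibroblast-like cell held reads of 17 chains, the median smooth muscle-like cell 5, the median pericyte-like cell 4, the median endothelial-like cell of each zone 2 and the median oligodendrocyte-like cell 1. Without thinning the medians were 18, 5, 4, between 2 and 3, and 2.

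**Figure D1:**
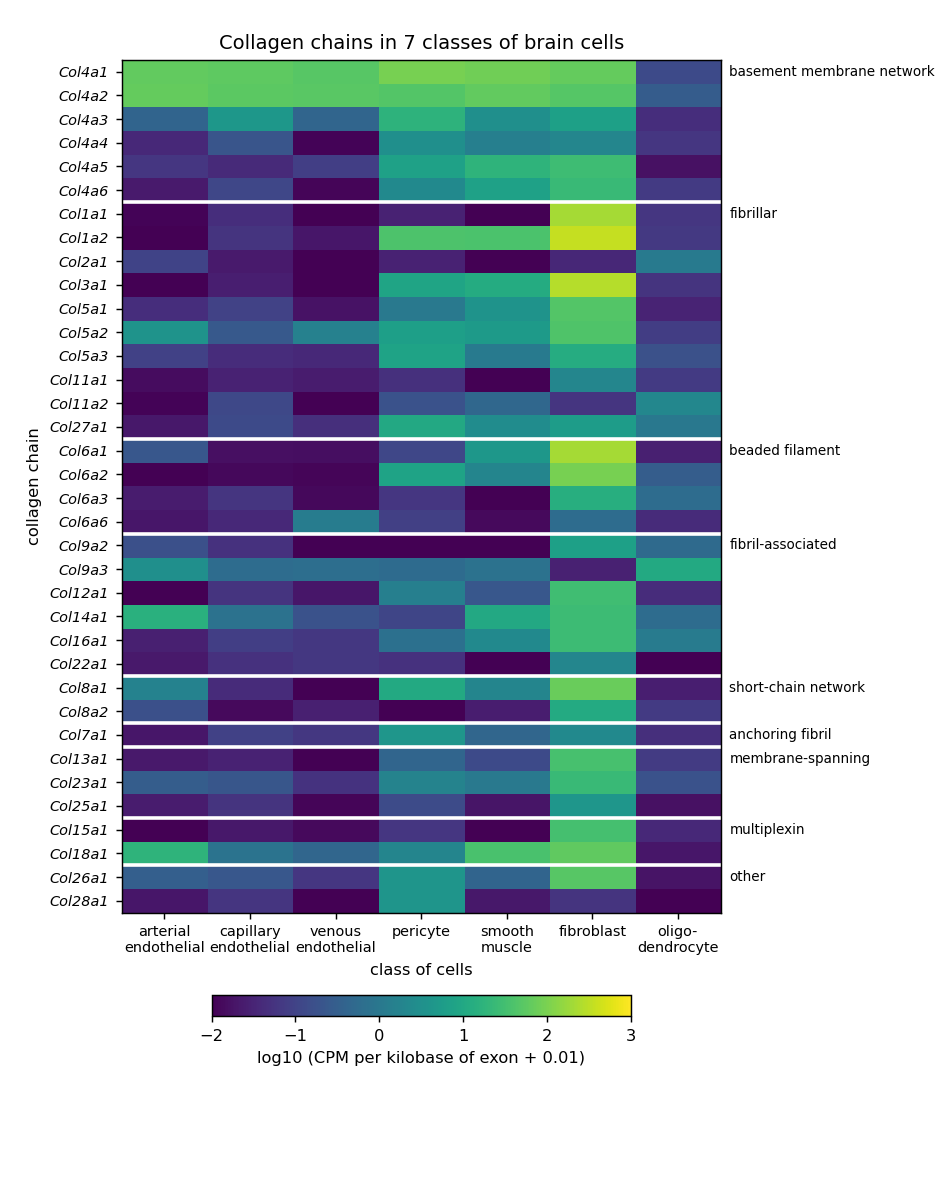
Level of the 36 chains that reached 5 CPM in at least 1 class (vertical axis, grouped by family) in 7 classes of cells (horizontal axis), as log10 of CPM per kilobase of exon plus 0.01, pooled over the cells of a class. Col4a1 and Col4a2 are bright in every column but the oligodendrocyte one, and the fibroblast column is bright across most families.

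To compare chains with each other, CPM was divided by the kilobases of exon of each gene. On that scale the basement membrane chains Col4a1 to Col4a6 made up 96.5% of all collagen signal in capillary-like cells (plates 94.7 to 97.8%) and 95.5% in venous-like cells (plates 93.2 to 98.3%). The share was 74.9% in arterial-like cells (plates 64.9 to 80.9%), below every plate of the other endothelial zones. There the multiplexins held 10.4% (plates 6.09 to 17.0%) and the fibril-associated chains 10.7%. Pericyte-like and smooth muscle-like cells were alike in their basement membrane share, with 59.9% (plates 57.7 to 61.8%) and 58.1% (plates 53.2 to 64.5%). They differed in the rest: fibrillar chains held 26.1% of the pericyte-like signal (plates 25.0 to 27.6%) and 21.2% of the smooth muscle-like signal (plates 16.8 to 24.1%), and multiplexins held 12.5% in smooth muscle-like cells. In fibroblast-like cells fibrillar chains held 52.2%, the beaded filament chains of type VI 17.3% and the basement membrane chains 9.51%.

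**Figure D2:**
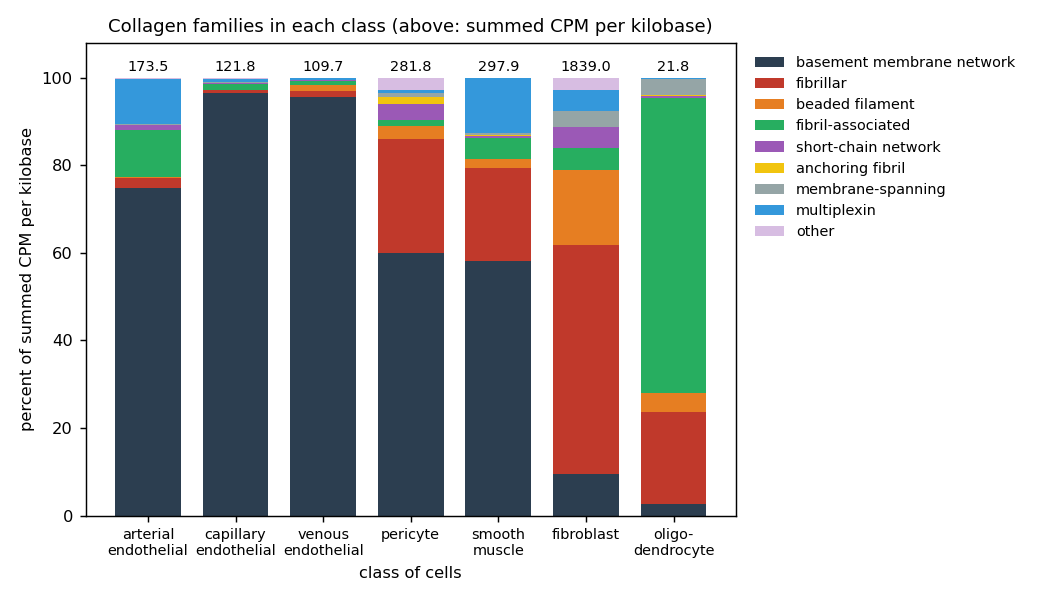
Share of the summed CPM per kilobase of exon (vertical axis, percent) held by each collagen family in each class (horizontal axis), with the summed level printed above each bar. Basement membrane chains hold over 95% in capillary and venous endothelial cells, 74.9% in arterial cells and 9.51% in fibroblasts.

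Col4a1 and Col4a2, the chains of the common basement membrane network, were at similar levels in every vascular class. Col4a1 ranged from 338 CPM in venous-like to 615 CPM in pericyte-like cells. Col4a2 ranged from 297 CPM in pericyte-like to 421 CPM in arterial-like cells. Neither chain differed 2-fold between the pools of any vascular classes compared, while in oligodendrocyte-like cells Col4a1 was at 0.821 CPM and Col4a2 at 1.80 CPM.

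The ratio of the pair differed between endothelium and pericytes. Per kilobase of exon, Col4a1 stood to Col4a2 as 0.985 in arterial-like cells (plates 0.754 to 1.38), 1.06 in capillary-like cells (plates 0.890 to 1.14) and 0.962 in venous-like cells (plates 0.846 to 1.23). In pericyte-like cells the ratio was 2.02, and its plates from 1.67 to 2.43 lay above all those of endothelial-like and smooth muscle-like cells. The ratio was 1.28 in smooth muscle-like cells (plates 0.998 to 1.57) and 1.33 in fibroblast-like cells (plates 1.24 and 1.35). Among 1151 pericyte-like cells, 613 held reads of both chains and 356 of Col4a1 alone. Between endothelial-like and pericyte-like cells the class and the mouse line change together and cannot be told apart.

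Within the endothelium, arterial-like cells had the widest collagen set. Col18a1 (a multiplexin whose end fragment is endostatin), Col14a1 (a fibril-associated chain), Col5a2 (a chain of the fibrillar type V), Col8a1 (a short-chain network collagen of vessel walls) and Col9a3 (a fibril-associated chain) were higher in arterial-like than in capillary-like cells. Col4a3, a chain of the restricted basement membrane network, was lower there. A chain was called when it differed at least 2-fold in the pools on the log2 (CPM + 1) scale, had 5 CPM on either side and moved in the same direction on each of the 4 plates.

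By this rule 5 of 8 chains tested were called higher in arterial-like than in capillary-like cells, against 3.61% of all genes tested, and 1 was called lower, against 2.74%. The median log2 ratio of the 8 chains was 2.48, and that of all genes 0.00. The other 36 chains were under 5 CPM in both zones. Arterial-like against venous-like cells gave 4 higher and 0 lower chains of 8, against 5.04% and 3.52% of all genes, with a median of 1.51 beside 0.02 for all genes. Venous-like against capillary-like cells gave 1 higher and 1 lower chain of 6, against 2.04% and 2.64%, with a median of -0.11 beside -0.01. The 3 comparisons share the same cells.

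Col18a1 was read at 134.7, 84.1, 205.3 and 68.3 CPM on the 4 plates of arterial-like cells. The capillary-like cells of the same plates had 6.61, 7.37, 0.239 and 6.87 CPM and the venous-like cells 0, 2.93, 7.60 and 0.161 CPM. Arterial-like cells were thus above both other zones on every plate, by 4.27 log2 units over capillary-like cells (pools 122.3 [120.5 to 124.2] and 5.38 CPM) and by 4.93 over venous-like cells. Reads were found in 29.5% of arterial-like, 3.22% of capillary-like and 2.70% of venous-like cells, or in 27.6%, 2.70% and 2.32% at 100000 reads per cell. Capillary-like and venous-like cells differed by -0.66 log2 units and were not called. Without plate EC5 that ratio was -1.91, which the rule calls lower in venous-like cells.

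Col18a1 shares 8825 bases of its gene span with Slc19a1, a folate transporter gene on the other strand, and Smart-seq2 does not record strand. Slc19a1 was at 0 CPM in arterial-like, 6.30 CPM in capillary-like, 1832 CPM in pericyte-like and 617 CPM in smooth muscle-like cells. In fibroblast-like cells it was at 66.4 CPM. The Col18a1 levels of these 5 classes were 122.3, 5.38, 12.8, 253.8 and 402.6 CPM, and the part of reads shared between the 2 genes was not tested.

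Col14a1 was even across the plates of arterial-like cells, at 97.1, 100.7, 121.2 and 74.3 CPM. It was at 8.88, 2.12, 1.73 and 5.76 CPM in capillary-like cells, and at 1.13 CPM in the venous-like pool. The pooled difference was 4.09 log2 units over capillary-like and 5.53 over venous-like cells, with no overlap between arterial-like plates and those of the other zones. Reads came from 24.4% of arterial-like cells (23.1% thinned) and 4.505% of capillary-like cells (3.22% thinned).

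Col4a3 was higher in capillary-like cells than in the other zones. It was read at 32.5, 31.6, 24.1 and 59.7 CPM on the 4 plates of capillary-like cells, against 3.35 CPM (plates 2.45 to 4.54) in arterial-like and 3.53 CPM (plates 0.112 to 9.98) in venous-like cells. Every capillary-like plate lay above every plate of the other zones. The log2 ratios were -3.14 for arterial-like and -3.08 for venous-like over capillary-like cells, and the latter was -4.10 without plate EC4. Clustering on a random 50% of the genes gave -1.65 and -2.11 instead. Its partner Col4a4 reached 2.03 CPM in capillary-like cells, and of 107 capillary-like cells with reads of Col4a3, 5 also had reads of Col4a4.

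Col4a3 reads in capillary-like cells were also looked at beside pericyte markers, since pericyte-like cells had the highest Col4a3 level of all classes, 144.8 CPM. The 8 pericyte markers summed to 15.1 CPM in capillary-like cells (plates 7.17 to 25.8) and to 60480 CPM in pericyte-like cells, and none of the 8 reached 20 CPM in capillary-like cells. Col1a2, at 209.9 CPM in pericyte-like cells, was at 0.2496 CPM in capillary-like cells. The part of pericyte material in the Col4a3 reads was not tested.

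The other chains called in arterial-like cells were less even. Col5a2 was at 4.77, 12.7, 31.9 and 48.6 CPM in arterial-like cells, at 6.40, 25.8, 7.19 and 0.323 CPM in venous-like cells and at 1.57 CPM in the capillary-like pool. It was called higher than in capillary-like cells in both other zones, by 3.31 and 2.14 log2 units, while arterial-like and venous-like plates overlapped. Without plate EC4 the venous-like ratio was 1.14, and at clustering resolution 0.5 it was 2.26 but no longer in the same direction on every plate. In venous-like cells 28.3% of the summed CPM of Col5a2 lay in 1 cell of 259.

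Col8a1 was at 8.38 CPM (plates 1.23 to 16.1) and Col9a3 at 9.46 CPM (plates 2.90 to 13.6) in arterial-like cells. They were 3.02 and 1.94 log2 units above capillary-like cells. Col8a1 rested on 11 of 373 cells and Col9a3 on 20. Without plate EC3 the ratio of Col9a3 was 2.71 over capillary-like and 3.28 over venous-like cells, beside 1.85 with it. Without the arterial-like sub-cluster of 144 cells, which had 1742 CPM of Fos beside 1152 CPM in the other, Col9a3 lost its call against venous-like cells at 1.91.

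Col6a6, a chain of type VI, was highest in venous-like cells of the 7 classes, at 14.5, 28.2, 3.37 and 0 CPM on the plates of venous-like cells. It was at 0.254 CPM in capillary-like and 0.0958 CPM in arterial-like cells. Plate EC6 had no read of it in venous-like cells, so it was not called. Without EC6 it was called at 3.55 log2 units over capillary-like cells and at -3.80 for arterial-like over venous-like cells. It was read in 15 of 259 cells, and 28.1% of its summed CPM lay in 1 of them.

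**Figure D3:**
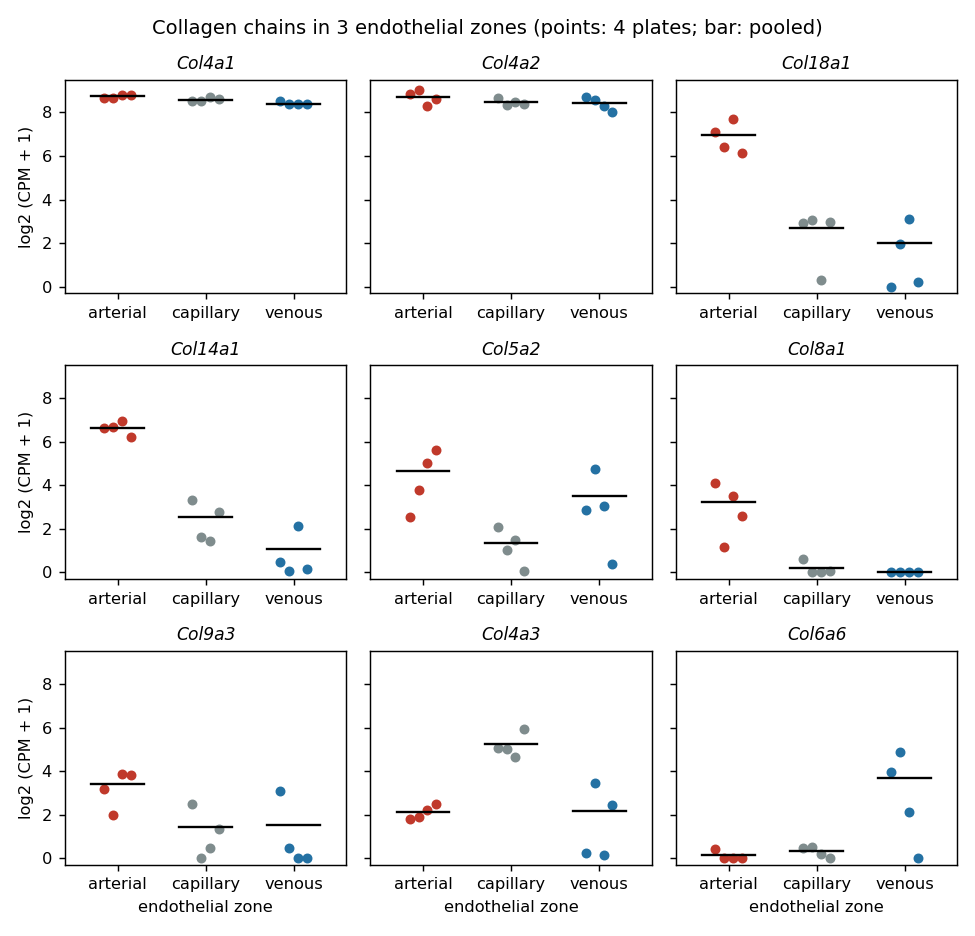
Level of 9 chains as log2 (CPM + 1) (vertical axis) in 3 endothelial zones (horizontal axis); points are the plates EC3 to EC6 from left to right and the bar is the pooled level. Col18a1 and Col14a1 points lie higher in arterial cells, Col4a3 points higher in capillary cells, and Col4a1 and Col4a2 are level.

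Pericyte-like cells carried a broader collagen set than endothelial-like cells. Col1a2, Col3a1, Col5a1, Col5a2, Col5a3 and Col27a1 of the fibrillar family, Col4a3 to Col4a6 of the restricted basement membrane networks, Col6a2, Col7a1, Col8a1, Col12a1, Col23a1, Col26a1 and Col28a1 were all lower in endothelial-like cells. Col14a1 and Col18a1 were the 2 chains higher there. Between different lines a chain was called at 2-fold with no overlap of the plates.

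Of 21 chains tested, 17 were called lower in the 1409 endothelial-like cells than in pericyte-like cells, against 17.7% of all genes tested, and 2 were called higher, against 14.9%. The median log2 ratio was -3.80 for the chains and -0.11 for all genes. The ratio was -7.53 for Col1a2, -5.66 for Col27a1, -5.60 for Col6a2 and -5.49 for Col3a1. It was 4.24 for Col14a1, and Col18a1 at 38.1 and 12.8 CPM was 2.84-fold higher after 1 CPM was added to both, with the endothelial level of both coming mainly from the arterial-like zone. Of the 8 endothelial markers, 3 reached 20 CPM in pericyte-like cells: Esam at 1323, Flt1 at 125.0 and Tek at 21.7 CPM. Pecam1 and Cdh5 were among those below it, at 3.35 and 1.67 CPM. The part of endothelial reads in these ratios was not tested. Without the mixed wells 2 calls were lost, Col28a1 at -3.35 and Col23a1 at -1.75. Col23a1 also lost its call, at -1.91, with equal weight per cell and with the authors' scaled values.

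Col1a2, the second chain of type I collagen, was the most abundant pericyte chain per kilobase after Col4a1 and Col4a2, at 39.2 CPM per kilobase. It was at 238.0, 249.3, 194.7 and 168.3 CPM on the 4 plates of pericyte-like cells and at 214.8, 175.4, 251.4 and 166.9 CPM in the smooth muscle-like cells of the same plates. The mural classes overlapped and differed by -0.05 log2 units. Reads were found in 45.7% of pericyte-like and 58.9% of smooth muscle-like cells (41.6% and 57.1% thinned). The share was 0.772% in capillary-like cells, which should lack the chain, with a median of 330388 reads per cell beside 333715 in pericyte-like cells.

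Its partner Col1a1 was nearly absent from these cells. Col1a1 was at 0.118 CPM in pericyte-like cells, with reads in 4 of 1151 cells. It had no read in 168 smooth muscle-like cells, which allows a share of cells with a read of up to 1.79% (3 of 168). In fibroblast-like cells it was at 1244 CPM, so the ratio of Col1a1 to Col1a2 per kilobase was 0.582 there and 0.000508 in pericyte-like cells. Of the 526 pericyte-like cells with reads of Col1a2, 2 also had reads of Col1a1. Of the 8 fibroblast markers, 5 reached 20 CPM in pericyte-like cells and their sum was 744 CPM (plates 581 to 907), beside 28370 CPM in fibroblast-like cells. The fibroblast marker Dcn was at 102 CPM in pericyte-like cells, and Lum had no read in pericyte-like or smooth muscle-like cells.

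Pericyte-like and smooth muscle-like cells, which share the same plates, differed in the minor chains. Col14a1, Col18a1, Col6a1, Col16a1 and the X-linked pair Col4a5 and Col4a6 were higher in smooth muscle-like cells. Col4a3, Col27a1, Col8a1, Col5a3, Col6a2, Col7a1 (the anchoring fibril collagen of epithelia), Col12a1, Col26a1 and Col28a1 were lower there. Col1a2, Col3a1, Col5a2, Col4a1 and Col4a2 differed less than 2-fold.

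Of 23 chains tested, 6 were called higher in smooth muscle-like cells, against 9.37% of all genes tested, and 9 were called lower, against 15.7%. The median log2 ratio was -0.30, beside -0.14 for all genes. The pericyte markers summed to 60480 CPM in pericyte-like and 2165 CPM in smooth muscle-like cells, and the part of wells with both was not tested. Leaving out the mixed wells does not address it, since that flag did not look for such wells. This comparison, that of endothelial-like and that of fibroblast-like cells all use the same pericyte-like cells.

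Col18a1 was even in smooth muscle-like cells, at 228.4, 251.3, 280.6 and 249.4 CPM, and at 12.8 CPM (plates 10.6 to 16.0) in pericyte-like cells. The difference was 4.21 log2 units with no overlap. Reads were found in 63.1% of smooth muscle-like and 12.2% of pericyte-like cells (61.9% and 9.83% thinned). Col14a1 was at 10.4, 95.4, 96.4 and 62.0 CPM in smooth muscle-like cells, the lowest on Mural3, and at 0.665 CPM in pericyte-like cells, a difference of 5.37. Col18a1 and Col14a1 were the 2 chains called both higher in arterial-like than in capillary-like endothelial cells and higher in smooth muscle-like than in pericyte-like cells. Of all genes, 3.61% and 9.37% were called in these comparisons taken singly. The share called in both was not counted, so the overlap is a description only.

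Col4a5 was at 121.4, 114.5, 119.2 and 105.3 CPM in smooth muscle-like cells and at 68.8, 51.2, 48.8 and 30.1 CPM in pericyte-like cells, 1.23 log2 units higher with no overlap. Col4a6 was at 47.5 CPM (plates 30.6 to 79.7) beside 15.9 CPM (plates 7.03 to 21.5), 1.52 log2 units higher. Without mixed wells the ratio of Col4a6 was 1.37 and no longer called. Col16a1 at 12.5 and 3.57 CPM was called at 1.56 and fell below 2-fold at 0.99 without mixed wells. Col6a1, at 18.3 CPM in smooth muscle-like cells, was called at 3.75 but was read in 5 of 168 cells, with 38.9% of its summed CPM in 1 of them.

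On the pericyte side, Col4a3 was at 180.1, 154.9, 133.7 and 119.0 CPM in pericyte-like cells and at 4.07, 34.2, 46.1 and 18.4 CPM in smooth muscle-like cells. Every pericyte-like plate was higher, and the pooled ratio was -2.41. Reads were found in 37.5% of pericyte-like cells (31.4% thinned). Col27a1, a fibrillar chain of cartilage, was at 74.2, 71.6, 100.4 and 67.2 CPM in pericyte-like cells and at 20.9 CPM (plates 6.52 to 34.5) in smooth muscle-like cells, a ratio of -1.86. Pericyte-like cells had the highest Col27a1 level of the 7 classes, above the fibroblast-like cells at 44.7 CPM, whose plate Pdgfra2 at 82.5 CPM lay within the pericyte-like range.

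Col28a1 and Col7a1 were also highest in the pericyte-like pool. Col28a1 was at 17.6, 10.3, 15.0 and 25.4 CPM there and at or under 0.206 CPM in each other of the 7 classes, so the ratio of smooth muscle-like over pericyte-like cells was -4.13. It was read in 4.52% of pericyte-like cells. Col7a1 was at 28.1, 61.4, 36.3 and 31.5 CPM in pericyte-like cells and at 4.03 CPM in smooth muscle-like cells, a ratio of -3.00, which was -4.11 without plate Mural5. The fibroblast-like plate Pdgfra2, at 66.5 CPM, lay above every pericyte-like plate of Col7a1. The ratio of fibroblast-like over pericyte-like cells was -0.82, and it was 0.75 without Pdgfra1 and 0.02 with equal weight per cell. Col8a1 at 54.6 CPM (plates 43.2 to 66.6) was 2.39 log2 units above smooth muscle-like cells and Col5a3 at 48.5 CPM (plates 43.7 to 63.1) was 2.70 above, or 4.09 without Mural5.

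Col6a2 was at 66.7, 58.4, 33.9 and 38.4 CPM in pericyte-like cells and at 11.4 CPM (plates 7.49 to 17.7) in smooth muscle-like cells, a ratio of -1.98. The remaining 2 chains called lower were Col12a1 (17.4 and 2.64 CPM, -2.34) and Col26a1 (11.1 and 1.09 CPM, -2.53). Without Mural4 the ratio of Col12a1 was -3.53, and without Mural3 that of Col26a1 was -3.30. Col5a1, at 30.8 CPM in smooth muscle-like and 8.89 CPM in pericyte-like cells, was not called because it was lower on Mural3. Without that plate it was called at 2.05. Col4a4 (14.5 and 31.4 CPM) was likewise called at -1.78 only without Mural4, and Col23a1 (5.99 and 9.60 CPM) at -3.30 only without Mural3.

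**Figure D4:**
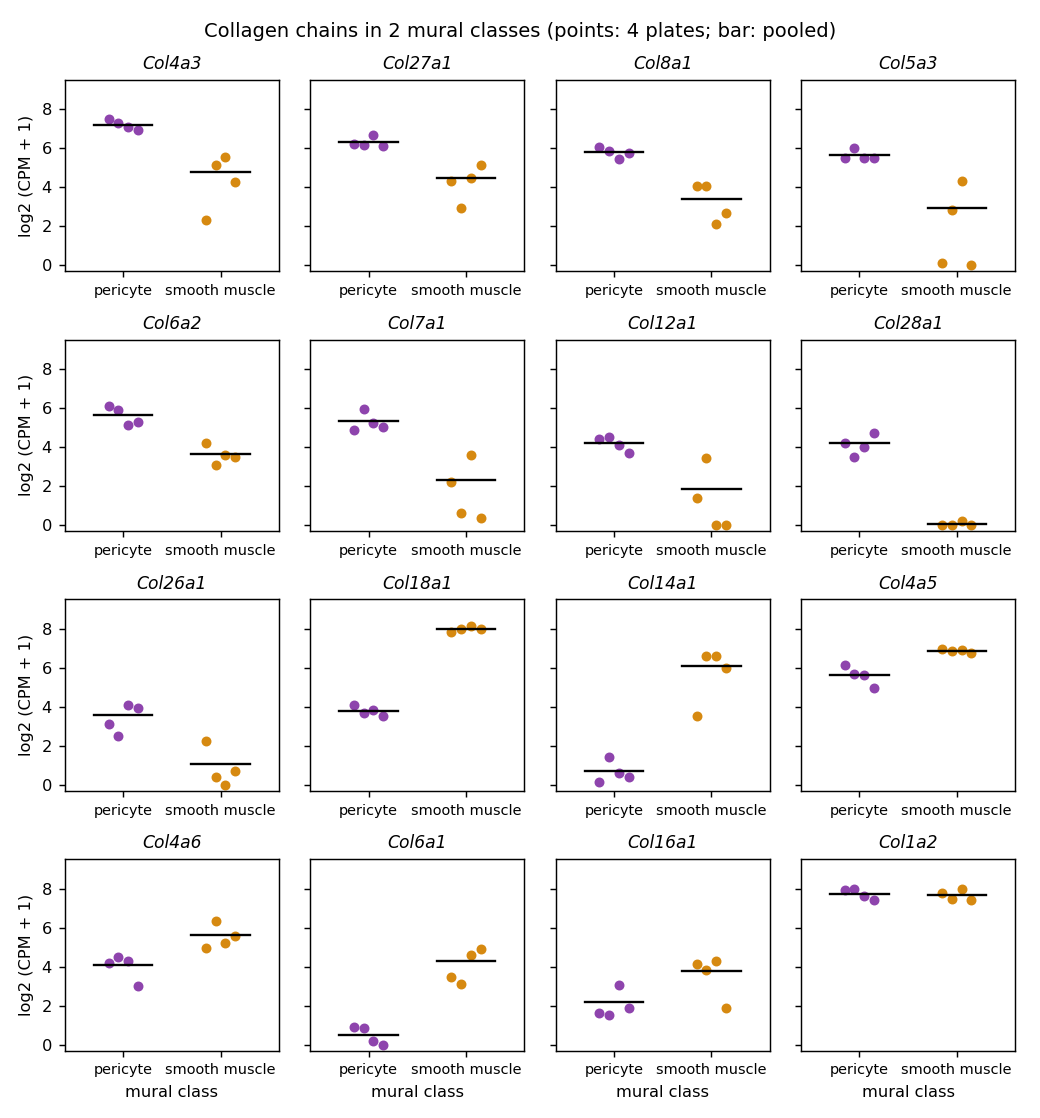
Level of 16 chains as log2 (CPM + 1) (vertical axis) in pericyte and smooth muscle cells (horizontal axis); points are the plates Mural3 to Mural6 from left to right and the bar is the pooled level. The first 9 panels are higher in pericytes, the next 6 in smooth muscle, and Col1a2 in the last panel is level.

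Pericyte-like cells were not uniform in these chains. A sub-cluster of 231 cells with 3071 CPM of Spp1 (osteopontin) had Col7a1 at 84.1 CPM, beside 6.80 to 40.9 CPM in the other named pericyte-like sub-clusters. A sub-cluster of 130 cells with 3858 CPM of the smooth muscle actin Acta2 had Col28a1 at 45.8 CPM, Col6a2 at 96.6 CPM and Col7a1 at 6.80 CPM. Its Col4a3 level of 190.4 CPM was at the top of the range over sub-clusters, 91.9 to 190.6 CPM. The 2 sub-clusters thus lay at opposite ends for Col7a1, and for Col28a1 the first had 1.77 CPM. These sub-clusters were drawn from the same cells, so their differences are descriptions.

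Arterial-like endothelium was also split. Its sub-cluster of 233 cells with 441.5 CPM of Mgp (a matrix protein of large arteries) had Col18a1 at 158.1 CPM, Col5a2 at 37.0 CPM and Col8a1 at 16.1 CPM. The other, of 144 cells with 39.6 CPM of Mgp, had Col18a1 at 73.0 CPM and Col5a2 at 1.85 CPM. Fos was high in both sub-clusters, at 1152 CPM in the first and 1742 CPM in the other. Cells of the Cldn5 line numbered 231 and 142 in them, and the rest came from the other lines. Col14a1 was level between them, at 94.2 and 106.0 CPM.

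Fibroblast-like cells had the highest level of 23 of the 30 chains that reached 20 CPM anywhere. These included chains of types I, III, V, VI, XII, XIII, XV and XVIII, and Col8a1, Col26a1 and Col23a1. Per kilobase of exon the order was Col1a2 (360.2 CPM per kilobase), Col3a1 (283.4), Col1a1 (209.7), Col6a1 (207.9), Col6a2 (96.1) and Col8a1 (73.3). Col4a1 followed at 64.4 CPM per kilobase.

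Against pericyte-like cells, 23 of 33 chains tested were called higher in fibroblast-like cells, against 13.0% of all genes tested, and 2 were called lower, against 13.3%. The median log2 ratio was 3.59, beside -0.09 for all genes. Between fibroblast-like and pericyte-like cells the class, the mouse line and the plates change together and cannot be told apart. This holds for every ratio of fibroblast-like over pericyte-like cells given here. Against oligodendrocyte-like cells of the same plates, 30 of 35 chains were called higher, against 28.2% of all genes tested, and 3 were called lower, against 16.0%. The median was 6.14, beside 0.36 for all genes. Pericyte markers summed to 3265 CPM (plates 2083 and 3409) in fibroblast-like cells, and oligodendrocyte markers to 696 CPM. Vtn alone gave 2639 CPM of the pericyte sum, and 6 of the 8 pericyte markers reached 20 CPM. Cldn11 alone gave 645 CPM of the oligodendrocyte sum, and 2 of the 8 oligodendrocyte markers reached 20 CPM.

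The fibrillar chains led. Col1a1 was at 1242 CPM on Pdgfra1 and 1260 CPM on Pdgfra2, nearly equal, and 10.12 log2 units above pericyte-like cells. Col1a2 was at 1987 and 1435 CPM and Col3a1 at 1675 and 772 CPM, 3.19 and 5.07 units above pericyte-like cells. Their plates lay far above the mural range of both chains, whose highest plate was 251.4 CPM for Col1a2 and 71.7 CPM for Col3a1. All 74 fibroblast-like cells with reads of Col1a1 also had reads of Col1a2. Col5a1 (358.2 and 537.7 CPM) and Col5a2 (284.7 and 171.1 CPM), which nucleate fibrils, were 5.26 and 2.63 units above pericyte-like cells.

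Type VI, which forms beaded filaments around cells, was next. Col6a1 was at 888.5 and 558.0 CPM and Col6a2 at 611.7 and 299.2 CPM on the 2 plates, and Col6a3 at 157.5 and 92.5 CPM. They were 9.21, 3.56 and 6.61 log2 units above pericyte-like cells, and each was lower on the plate with fewer cells. Col6a4 and Col6a5 stayed under 1 CPM in every class.

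The basement membrane chains of the restricted networks were also read. Col4a5 (196.9 and 106.5 CPM) and Col4a6 (167.4 and 122.4 CPM) were 1.93 and 3.27 log2 units above pericyte-like cells. Col4a3 was at 66.8 CPM on Pdgfra1 and 0.893 CPM on Pdgfra2, and Col4a4 at 21.9 and 0.357 CPM, so both rested on 1 plate. Col4a3 was called lower than in pericyte-like cells at -1.27, and the ratio was -6.27 on Pdgfra2 alone. Against oligodendrocyte-like cells it was called at 5.54, and on Pdgfra2 alone it was 0.53.

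Col4a1 and Col4a2 showed the opposite pattern over the plates, with 381.6 and 275.5 CPM on Pdgfra1 and 791.3 and 620.2 CPM on Pdgfra2. The 8 endothelial markers summed to 46.0 CPM on Pdgfra1 and 465.5 CPM on Pdgfra2, beside 15210 CPM in capillary-like cells, and their part in the difference was not tested. On Pdgfra2 alone Col4a2 was called higher than in pericyte-like cells, at 1.06 log2 units, beside 0.08 in the pool.

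Of the basement membrane-attached multiplexins, Col18a1 was at 394.0 and 473.6 CPM and Col15a1 at 167.3 and 458.2 CPM in fibroblast-like cells. They were 4.87 and 7.25 log2 units above pericyte-like cells. Col15a1 stayed at or under 0.310 CPM in every other class, so of the multiplexins arterial-like and smooth muscle-like cells read Col18a1 alone. The fibril-associated chains Col12a1 (333.0 and 554.5 CPM), Col14a1 (181.8 and 80.9 CPM) and Col16a1 (148.6 and 70.4 CPM) were 4.28, 6.69 and 4.95 units above pericyte-like cells. Without mixed wells the ratio of Col12a1 was 3.39.

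Of the membrane-spanning chains, Col13a1 was at 113.7 and 91.5 CPM and Col23a1 at 113.1 and 332.3 CPM in fibroblast-like cells, 5.60 and 3.70 log2 units above pericyte-like cells. Col26a1, a small chain of uncertain assembly, was at 143.1 and 97.2 CPM, 3.52 units above. Col8a1 was at 414.0 and 52.5 CPM, so its lower plate lay within the pericyte-like range and it was not called despite a pooled ratio of 2.76. Col8a2 was at 50.7 and 42.5 CPM in fibroblast-like cells and had no read in pericyte-like cells.

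The low chains of fibroblast-like cells each rested on a few cells. Col9a2 (15.8 and 58.6 CPM) was read in 18 of 77 cells. Col25a1 (27.0 and 44.3 CPM), Col5a3 (49.3 and 307.6 CPM) and Col7a1 (16.3 and 66.5 CPM) each had between 37.0% and 41.7% of their summed CPM in 1 cell of 77. Col22a1 (8.74 and 88.8 CPM) had 42.0% and Col11a1 (14.3 and 18.0 CPM) 35.8%. Col7a1 was called higher than in oligodendrocyte-like cells at 4.09, and without mixed wells at 2.11 it was not called.

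Oligodendrocyte-like cells reached 5 CPM for 6 chains, Col9a3, Col11a2, Col27a1, Col6a3, Col16a1 and Col2a1. Col9a3 was at 31.8 CPM on Pdgfra1 and 33.0 CPM on Pdgfra2, Col11a2 at 16.3 and 10.7 CPM and Col2a1 at 5.45 and 5.46 CPM. Col27a1 was at 12.2 and 4.59 CPM, Col6a3 at 0.0310 and 10.2 CPM and Col16a1 at 11.5 and 3.28 CPM, each uneven between the plates. Col9a3, Col11a2 and Col2a1 were the 3 chains called lower in fibroblast-like cells, at -4.99, -3.39 and -2.51 log2 units. Under equal weight for each cell the ratio of Col2a1 was -2.41 and no longer called.

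Col9a3 held 49.1% of the collagen signal per kilobase of oligodendrocyte-like cells, and fibril-associated chains together 67.4% (plates 66.0 to 69.5%). Col11a2 was the more widely read, in 34 of 150 cells (22.7%, 20.0% thinned). Col9a3 was read in 24 of 150 cells (16.0%, 15.3% thinned), with 25.5% of its summed CPM in 1 of them. In fibroblast-like cells, at a higher median depth, Col9a3 was at 0.0585 CPM and Col11a2 at 0.312 CPM. Arterial-like cells, at 9.46 CPM, had the next highest Col9a3 level of the 7 classes. Clustering on a random 50% of the genes put 155 cells into the class and 87 into the fibroblast-like one, and it reversed Col11a1, from 3.42 log2 units higher in fibroblast-like cells to -0.04.

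The remaining chains were low everywhere. In all 7 classes 8 chains stayed under 5 CPM, namely Col6a4, Col6a5, Col9a1, Col10a1, Col17a1, Col19a1, Col20a1 and Col24a1. Their highest levels ran from 0.381 CPM for Col6a4 to 4.88 CPM for Col9a1 in oligodendrocyte-like cells. Col6a6, Col22a1, Col2a1, Col11a1, Col11a2 and Col28a1 peaked between 5 and 20 CPM. In all, 30 chains reached 20 CPM in some class.

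Whether a class read the chains of a type together differed between types. Fibroblast-like cells read Col8a1 with Col8a2 in 16 of 77 cells and Col8a1 alone in 28. They read Col1a1 with Col1a2 in 74 cells and Col6a1 with Col6a2 in 60. Col6a3, which joins those in type VI, was read in 30 of 77 cells and with Col6a1 in 28. Pericyte-like cells read 1 chain of each of these pairs: Col1a2 without Col1a1, Col6a2 without Col6a1 and Col8a1 without Col8a2. Col6a1 was at 0.436 CPM in pericyte-like cells, and of the 155 cells with reads of Col6a2, 1 also had reads of Col6a1. The ratio of Col6a1 to Col6a2 per kilobase was 0.0133 in pericyte-like and 2.16 in fibroblast-like cells.

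The restricted chains of type IV were also unequal. Col4a5 stood to Col4a6 as 1.17 per kilobase in fibroblast-like cells (plates 0.885 and 1.20), 2.46 in smooth muscle-like cells (plates 1.46 to 4.04) and 3.10 in pericyte-like cells (plates 2.42 to 4.35). Col4a3 stood to Col4a4 as 5.46 in pericyte-like cells (plates 4.08 to 7.73), 2.16 in smooth muscle-like cells (plates 0.542 to 8.22) and 3.60 in fibroblast-like cells (plates 2.95 and 3.60). Of 432 pericyte-like cells with reads of Col4a3, 91 also held Col4a4. In capillary-like cells, where Col4a4 was near 0, it was 21.7. Type V was uneven in pericyte-like cells, where Col5a1 stood to Col5a2 as 0.162 (plates 0.0748 to 0.280). The ratio was 0.697 in smooth muscle-like cells (plates 0.414 to 1.31) and 1.09 in fibroblast-like cells (plates 0.992 and 2.48).

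**Figure D5:**
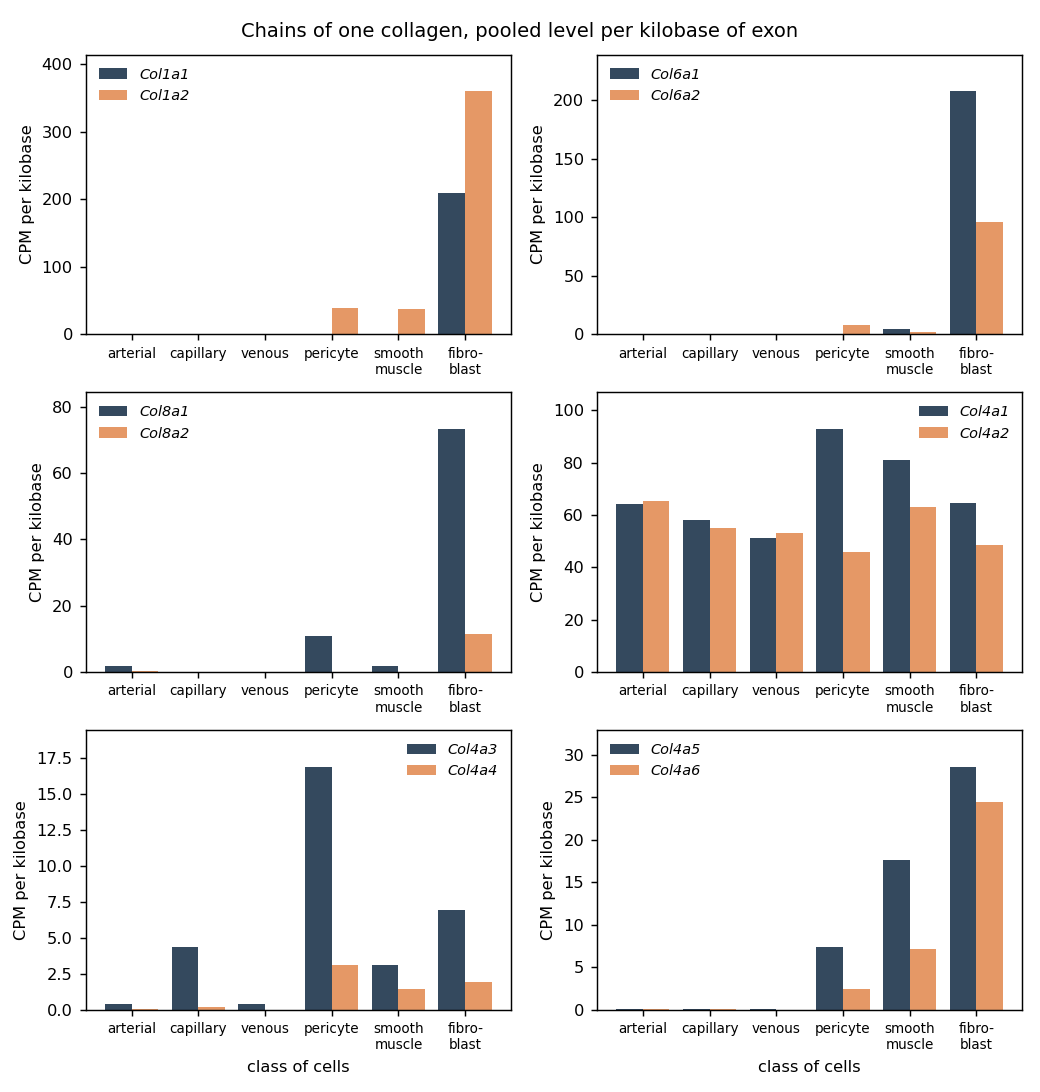
Pooled level in CPM per kilobase of exon (vertical axes, each from 0) of the paired chains of 6 collagens in 6 vascular classes (horizontal axis). Pericytes and smooth muscle show Col1a2 without Col1a1, pericytes show Col6a2 without Col6a1 and Col8a1 without Col8a2, and Col4a1 with Col4a2 is present in every class.

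The genomic layout of these pairs is given in GRCm38 coordinates of the GENCODE annotation. Col4a1 and Col4a2 start head to head on chromosome 8 and share 22 bases at their starts. Col4a3 and Col4a4 start head to head on chromosome 1 with 71 bases between them, and Col4a5 and Col4a6 start head to head on chromosome X with 1308 bases between them. Col6a1 and Col6a2 follow each other on the same strand of chromosome 10, with 85161 bases between them. Col4a5 and Col4a6 reached 5 CPM in the same 3 classes, and Col4a4 did so in each class in which Col4a3 did but the capillary-like one. Col6a2 of the tandem pair reached 5 CPM in pericyte-like cells and Col6a1 did not.

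The sequence before the start of 4 such genes is shown so that paired and unpaired members can be compared: Col4a4, whose stretch is the whole gap to Col4a3, Col4a6 of the X-linked pair, Col6a2, read in pericyte-like cells without its neighbour, and Col3a1, a leading fibrillar chain. The sequences are RefSeq's promoter windows of GRCm38.p6, cut to bases outside exons and read towards the gene, at chr1:82586850-82586920 (minus strand), chrX:141474077-141474326 (minus strand), chr10:76623631-76623880 (minus strand) and chr1:45311288-45311537 (plus strand). Capitals mark matches on either strand to the TATA box letters TATAAA, to the CCAAT box letters CCAAT or to the GC box letters GGGCGG, and a match on the other strand shows as its reverse complement.
Col4a4: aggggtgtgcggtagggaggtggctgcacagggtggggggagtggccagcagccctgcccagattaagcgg
Col4a6: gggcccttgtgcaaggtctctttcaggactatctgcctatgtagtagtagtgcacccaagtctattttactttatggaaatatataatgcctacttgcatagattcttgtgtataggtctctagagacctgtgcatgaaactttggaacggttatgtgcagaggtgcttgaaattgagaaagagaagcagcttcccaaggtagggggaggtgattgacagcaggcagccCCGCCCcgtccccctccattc
Col6a2: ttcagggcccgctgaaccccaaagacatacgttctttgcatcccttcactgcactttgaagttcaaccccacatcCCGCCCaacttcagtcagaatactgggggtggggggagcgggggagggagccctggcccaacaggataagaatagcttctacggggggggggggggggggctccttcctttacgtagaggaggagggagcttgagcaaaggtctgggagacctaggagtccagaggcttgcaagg
Col3a1: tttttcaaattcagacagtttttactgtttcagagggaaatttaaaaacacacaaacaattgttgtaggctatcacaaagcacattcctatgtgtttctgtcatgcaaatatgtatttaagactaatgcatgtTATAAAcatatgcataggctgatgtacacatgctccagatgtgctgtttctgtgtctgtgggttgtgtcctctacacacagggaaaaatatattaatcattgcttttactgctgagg

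The 71 bases between Col4a4 and Col4a3 held none of the 3 motifs. Col3a1 held TATAAA, 117 bases before its start, and Col4a6 and Col6a2 held GGGCGG on the other strand, 21 and 175 bases before theirs. Among all 32851 windows in the table, 12.4% of stretches of 250 bases hold TATAAA, 33.8% CCAAT and 32.7% GGGCGG, and for 71 bases the shares are 4.41%, 13.3% and 20.7%. None of the stretches printed above held more than 1 match. The stretch before Col7a1, searched but not printed, held 2: CCAAT on the other strand and GGGCGG, 249 and 61 bases before its start. A window was found for 35 of the 44 chains.

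The machinery that folds, exports, trims and cross-links collagen was followed through a list of 43 genes. Of 23 genes tested, 2 were called higher in arterial-like than in capillary-like cells (3.61% of all genes) and 0 lower (2.74%). Leaving out a plate gave 0 to 3 higher. Of 23 tested, 0 were called between venous-like and capillary-like cells, against 2.04% higher and 2.64% lower among all genes. Against venous-like cells, 2 of 24 were higher in arterial-like cells (5.04% of all genes) and 0 lower (3.52%). Of the genes called over capillary-like cells, the one with over 20 CPM was Bmp1, a protease that removes propeptides. It was at 45.0 CPM in arterial-like and 20.5 CPM in capillary-like cells (1.10 log2 units). The other was Lox, a cross-linking enzyme, at 5.40 CPM in arterial-like and 0.00792 CPM in capillary-like cells.

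Smooth muscle-like and pericyte-like cells differed in 18 of 34 tested genes of the list, with 8 higher and 10 lower in smooth muscle-like cells, against 9.37% and 15.7% of all genes. Higher were Lox (117.2 and 2.19 CPM, 5.21 log2 units), the propeptide protease gene Adamts14 (149.0 and 13.4 CPM, 3.38), the coat gene Sec24d (1.56) and the collagen receptor gene Ddr2 (326.3 and 129.9 CPM, 1.32). Lower were the uptake receptor gene Mrc2 (5.85 and 217.8 CPM, -5.00), Colgalt2, which adds sugars to chains (-3.52), Loxl3 (42.9 and 168.2 CPM, -1.95) and the integrin gene Itga1 (466.7 and 1254 CPM, -1.42). Among the 16 tested genes of chain modification and folding, 7 were lower and 1 was higher, the lower ones including Ppib (-1.68) and Plod1 (-1.48).

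Fibroblast-like cells had more of the trimming and cross-linking genes than pericyte-like cells, while most folding genes were not called. Of 37 genes tested, 10 were higher, against 13.0% of all genes, and 3 lower, against 13.3%. Leaving out a plate gave 3 to 9 lower. For propeptide removal 4 of 5 genes tested were higher, led by Adamts2 (151.3 and 0.281 CPM, 6.89 log2 units), and Pcolce was at 1445 and 355.9 CPM (2.02). For cross-linking 3 of 5 were higher: Loxl1 (6.26), Lox (5.20) and Loxl2 (3.45). Of 16 genes of modification and folding, 1 was higher and 2 were lower. The collagen-binding integrin gene Itga1 was at 64.6 and 1254 CPM (-4.26).

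Endothelial-like cells had 17 of 31 tested genes of the list lower than pericyte-like cells, against 17.7% of all genes, and 1 higher, against 14.9%. The higher one was Colgalt2 (85.4 and 27.1 CPM, 1.62 log2 units). Lower were Pcolce (1.31 and 355.9 CPM, -7.27), Mrc2 (-7.03), Loxl3 (-6.91) and the prolyl hydroxylase gene P3h3, listed as Leprel2 (-5.65). The chaperone gene Serpinh1 was at 110.0 and 356.4 CPM (-1.69). Against oligodendrocyte-like cells, fibroblast-like cells had 25 of 37 tested genes higher, against 28.2% of all genes, and 4 lower, against 16.0%, the latter led by the collagen receptor gene Ddr1 (75.8 and 727.4 CPM, -3.25) and Pcolce2 (10.5 and 101.8 CPM, -3.16). Pcolce (10.23), Serpinh1 (7.93) and Loxl1 (8.05) were among those higher.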

How the data were processed

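The members and gene lists were chosen with earlier results of these data known. The authors deposited whole-number read counts per gene and cell, 1 column a cell, and a second table of scaled values, a score whose total lies between 499421 and 501418 per cell and of unstated scaling. Reads were aligned with STAR 2.4.2a to mm10, per the submitters' processing notes. For the gene counter and annotation: not given in the sources used here. Per the labels, cells were sorted into 384-well plates and amplified by Smart-seq2, a full-length method without molecular tags.

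All cells had at least 500 genes, and 0 were removed. No doublet caller was run, and no 2 cells had identical counts. All cells, and then endothelial and mural cells apart, were clustered with scanpy 1.11.5 and leidenalg 0.10.2 on 2000 variable genes (30 components, 15 neighbours, resolution 1). The 92 genes left out were the chains, the collagen-making genes and the reporter genes. Clusters were named from 18 marker sets, where over 50% of a set's markers stood at 50% or more of the highest cluster's level and at least 3 reached 20 CPM. Counts were summed per class and divided by the class total. Per-kilobase levels used exons of protein-coding transcripts. Comparisons took log2 (CPM + 1), with 5 CPM on either side. Chains were given values where they reached 20 CPM in a class or were among the largest called ratios, and up to 3 collagen-making genes a role and direction where called at 20 CPM. The comparison step was tested on simulated data. Exact intervals came from scipy 1.17.1.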

Additional observations from a re-analysis of the deposited data

Results flagged for a closer look

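Some cells enter no comparison above but held collagen reads. They include the unnamed cells, 21 of the Cldn5 line, 152 of the mural line and 22 of the Pdgfra line, which fell into groups of 74, 41, 40, 30 and 10 cells. The group of 41 cells held 31 of the mural line and 10 of the Pdgfra line. Its leading genes Moxd1 and Coch were read in all 10 cells of the Pdgfra line, but in 1 and 5 of the 31 cells of the mural line. Fibrillar chains were high there: Col1a2 was at 661.3 CPM [649.2 to 673.4] with reads in 33 cells, and Col3a1 at 604.7 CPM [593.2 to 616.4] in 29 cells. Col6a1 was at 360.8 CPM [351.9 to 369.8] in 11 cells and Col1a1 at 30.81 CPM [28.27 to 33.53] in 6 cells.

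The 10 cells of the Pdgfra line and the 31 of the mural line differed within that group. Col1a1 was at 82.1 CPM in the former, in 6 cells, and had no read in the latter. Col6a1 was at 858.9 and 61.4 CPM and Col14a1 at 474.0 and 0 CPM. Col18a1 ran the other way, at 0.305 and 187.4 CPM, and Col1a2 was at 812.7 and 570.2 CPM. The fibroblast marker Dcn was at 2441 and 169.1 CPM and the pericyte marker Vtn at 6785 and 16430 CPM, and their part in these differences was not tested.

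A cluster of 24 cells from all 3 lines was named progenitor-like for oligodendrocytes, with all 6 such markers at 20 CPM and leading genes of astrocytes, and was in no comparison either. Col11a1 was at 106.6 CPM [100.6 to 112.8] in 3 cells, Col9a3 at 76.61 CPM [71.55 to 81.93] in 6 cells, Col11a2 at 76.16 CPM [71.12 to 81.46] in 6 cells and Col9a1 at 35.92 CPM [32.49 to 39.62] in 3 cells. The same cluster held 7310 CPM of summed endothelial markers.

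In the unnamed groups of 74, 40, 30 and 10 cells Col4a1 was at 331.6, 692.4, 260.8 and 235.6 CPM. Col28a1 was at 33.3 CPM in the group of 74 cells, with all its reads in 1 cell.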

How the results depend on the processing

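Of 613 counts, levels, shares and ratios recomputed under other settings, 564 stayed near the main value and 49 moved. For levels, shares and ratios, near meant within the standard deviation over plates. For counts of called genes it meant within a set fold of the main count, and no spread entered. Of 1936 single-chain ratios, 1905 kept their side of the call rule, 18 gained a call, 12 lost one and 1 reversed. The reversed one was Col11a1, fibroblast-like over oligodendrocyte-like, at -0.04 when cells were clustered on a random 50% of genes. The cause of the moves below was not tested.

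With the authors' scaled values and with equal weight per cell, the summed chains of fibroblast-like cells were 9795 and 9794 CPM. Collagen-making genes higher in venous-like than in capillary-like cells were then 1, and those lower in fibroblast-like than in pericyte-like cells 5. A pseudocount of 5 CPM left 1 collagen-making gene higher in arterial-like than in capillary-like cells, no minimum CPM gave 4, and the latter gave 2 chains lower in venous-like than in capillary-like cells. Without mixed wells the fibroblast-like sum was 8541 CPM, its ratio of Col4a1 to Col4a2 1.211 and the basement membrane share of oligodendrocyte-like cells 1.522%. Clustering on 50% of genes gave 1 collagen-making gene higher in arterial-like than in capillary-like cells, 1 higher in venous-like than in capillary-like cells, and 1 higher and 1 lower in arterial-like than in venous-like cells. It also gave a fibroblast-like ratio of 1.247 and an oligodendrocyte-like sum of 145.3 CPM. At resolution 0.5, 0 collagen-making genes were higher in arterial-like and 0 chains higher in venous-like than in capillary-like cells, and 1 collagen-making gene was higher in arterial-like than in venous-like cells. At resolution 2, collagen-making genes were 1 higher and 1 lower in venous-like than in capillary-like cells, and 4 higher and 1 lower in arterial-like than in venous-like cells. The basement membrane share was then 57.8% in arterial-like and 93.35% in venous-like cells, and the arterial-like sum 1170 CPM.

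The alternatives that leave out a sub-cluster or use exons of all transcripts were chosen after seeing the data. Without the arterial-like sub-cluster of 144 cells, 4 collagen-making genes were higher than in capillary-like cells. With exons of all transcripts the basement membrane share was 68.91% in pericyte-like and 63.9% in smooth muscle-like cells, and the fibroblast-like Col4a1 to Col4a2 ratio was 1.207.

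Leaving out each plate in turn gave 1 to 2 chains higher and 1 to 3 lower in venous-like than in capillary-like cells, and 0 to 1 lower in arterial-like than in venous-like cells. Collagen-making genes were 0 to 3 higher in arterial-like than in capillary-like cells, 1 to 3 higher and 0 to 2 lower in arterial-like than in venous-like cells, 0 to 2 higher and 0 to 1 lower in venous-like than in capillary-like cells, and 3 to 9 lower in fibroblast-like than in pericyte-like cells. For fibroblast-like cells the basement membrane share ran from 8.881 to 15.38%, the summed chains from 9726 to 10560 CPM and the ratio from 1.244 to 1.351. No paired analysis was possible because no animal is named and the replicate numbers only count cells.

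With 1 sample a line, no difference here has a biological replicate. Chains read in few cells, such as Col6a1 in smooth muscle-like cells, rest on those cells, and the 77 fibroblast-like cells mostly on 1 plate.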
